A study of Canis lupus familiaris with 51 samples.

Results

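The 33 canine cutaneous mast cell tumors (MCTs) of unknown class were compared by the class that the study predicted for them, 7 as undifferentiated (T132, T115, T114, T104, T80, T77 and T49) and 26 as differentiated, of 51 tumors on arrays in all. Tumors were taken as unknown where they were not among the study's reference samples, and their class was the one shown in its class prediction, which was trained on reference tumors of known histology and applied to these same arrays. The predictor used genes of mitosis and DNA replication, together with a few others, so a difference in those genes was built into the classes and is described without a test. The 7 undifferentiated MCTs came from 4 males, 2 females and 1 dog with no sex given, aged 6 to 14 years (median 9.5). Among them were 2 Boxers, 1 Labrador, 1 crossbred dog, a Bouvier des Flandres (T77) and an English Setter (T104). The 26 differentiated MCTs came from 7 males, 18 females and 1 dog with no sex given, aged 4 to 13 years (median 8). Among them were 3 Boxers, 6 Labradors and 9 crossbred dogs. The others with a breed given were Golden Retrievers, Dachshunds, a Cocker Spaniel, a Cane Corso and an American Staffordshire. Age was not given for 1 dog of each class, and breed was not given for 1 dog of each class. Each array held the RNA of 1 tumor of 1 dog, taken from the central part of the surgically removed mass, so a sample could also contain stroma, vessels, infiltrating leukocytes and overlying skin. The labels name no treatment or genotype for either class. In such bulk samples fewer cells of a type and less RNA per cell cannot be told apart, and p-values measure the spread between these tumors.

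Mast cells are resident cells of the skin that depend on signaling through the receptor tyrosine kinase KIT, bind IgE through a high-affinity receptor and store proteases such as tryptase and chymase in granules. When they are activated they release granule contents, prostaglandins, leukotrienes and cytokines, which draw in granulocytes. Cutaneous MCTs are among the most common skin tumors of the dog, and they range from well differentiated, granule-rich growths to poorly differentiated tumors with many mitoses that recur and spread more often.

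Levels are log2 values of the scanner's processed intensity after quantile normalization, and a difference is the mean of the undifferentiated MCTs minus that of the differentiated MCTs, ± the standard error from limma. A probe was called up- or down-regulated when it changed at least 2-fold and its p, adjusted after Benjamini and Hochberg over all probes, was under 0.01. For each probe limma fitted a common variance to both classes. Where the smaller, undifferentiated class spread more than the other, the standard error and p can be too small. Of the non-control spots, 65.1% to 72.9% (median 69.1%) were well above background in the undifferentiated MCTs and 59.4% to 74.8% (median 68.2%) in the differentiated ones. Pairs of the 33 arrays correlated at r between 0.913 and 0.986, no 2 arrays were identical, and T77 had the lowest median correlation with the rest, at 0.943. The arrays came from 15 slides scanned in 9 sessions. On 5 slides (6 undifferentiated and 9 differentiated MCTs) and in 4 sessions (7 and 14) both classes were present, which allowed within-slide and within-session differences to be computed. Of the 7 undifferentiated MCTs, 5 (T77, T80, T104, T114 and T132) carried a high level of epidermal transcripts, with a mean over the epidermis list of 10.94 to 12.54, against 5.13 in T49 and 5.36 in T115. In the differentiated MCTs that mean ran from 4.26 to 12.45 with a median of 7.20.

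The samples of both classes expressed the defining mast cell genes well above background. Tryptase (TRYPTASE, the main granule protease) was between 14.48 and 16.59 in the undifferentiated MCTs and between 15.34 and 18.02 in the differentiated ones, a difference of -0.93 ± 0.29 (adjusted p = 0.0541). CMA1, the granule protease chymase, FCER1A, the IgE-binding chain of the high-affinity IgE receptor, and MS4A2, the beta chain of that receptor, differed by -0.73, -0.58 and -0.46 with adjusted p between 0.183 and 0.477. HPGDS, which makes prostaglandin D2, differed by -1.38 ± 0.37 (adjusted p = 0.0207), and SRGN, the core protein of granule proteoglycans, by 0.22. None of the 39 measured genes of the mast cell list was called, against 1.62% of all named genes. Of them 9 were higher and 30 lower in the undifferentiated MCTs, with a median difference of -0.46, against a median of -0.01 over all 11698 named genes. The markers CPA3, HDC and GATA2 were not measured.

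KIT itself spread widely among the undifferentiated MCTs. Its level was 9.11 in T77, 10.99 in T114, 11.55 in T104, 12.20 in T80, 13.19 in T115, 13.60 in T132 and 14.78 in T49. The differentiated MCTs lay between 12.31 and 14.83 with a median of 13.36, so 4 undifferentiated MCTs were below every differentiated one while T49 was near the top of their range. The difference was -1.20 ± 0.44 (adjusted p = 0.101), no one of the 3 KIT probes was called, and the adjusted p ran from 0.0187 without T49 to 0.372 without T77. On the 5 slides with both classes the KIT difference ran from -1.48 to 1.89, and with slide as a block it was -0.26 (adjusted p = 0.904). T77, the tumor with the lowest KIT, shared its slide with no unknown differentiated MCT and so does not enter these within-slide values. The mean level of the mast cell list was also lowest in T77, at 10.07, and in T114, at 10.42, and highest in T49, at 12.09, among the undifferentiated MCTs.

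**Figure D1:**
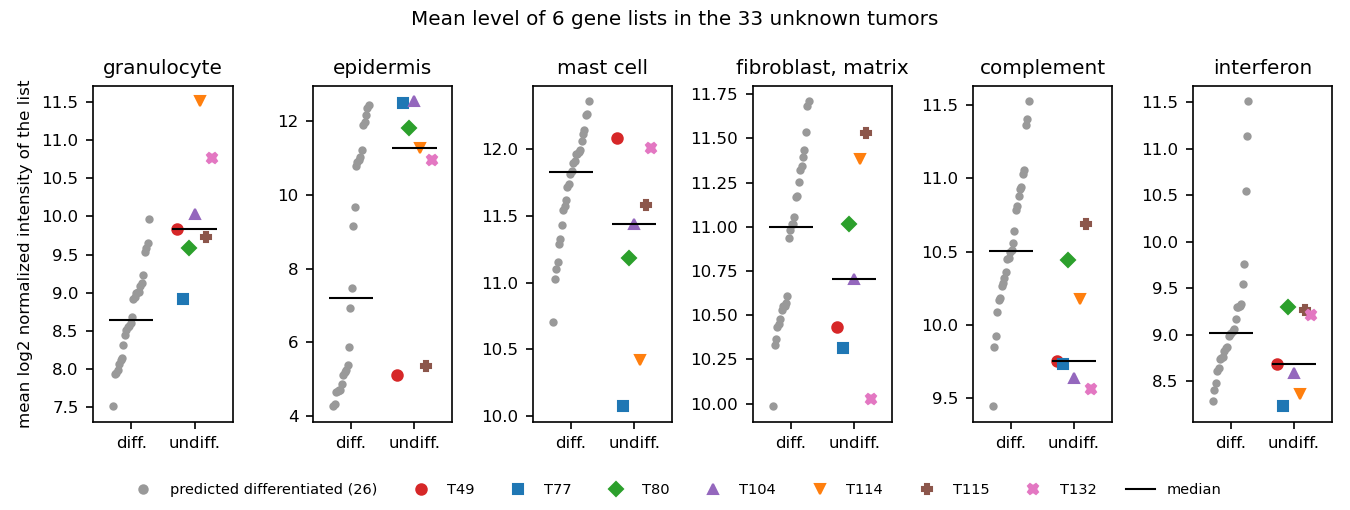
Mean log2 level of 6 gene lists (y axis) in each of the 33 tumors, by predicted class (x axis); each point is 1 tumor and the bar is the class median. Granulocyte genes were above all differentiated MCTs in 3 of 7 undifferentiated MCTs, while the epidermis list split the undifferentiated MCTs into 5 high and 2 low samples.

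Proliferation genes separated the classes, as their use in the prediction fixes. The mean level of 128 mitosis genes was 7.77 to 8.30 in the undifferentiated MCTs and 6.25 to 7.50 in the differentiated ones, with no overlap. RRM2, a subunit of ribonucleotide reductase, lay between 6.10 and 7.30 against 2.26 to 5.44, a difference of 2.75. ANLN, an actin-binding protein of cytokinesis, differed by 2.55, DEPDC1 by 2.54 and SHCBP1 by 2.51. All 7 undifferentiated MCTs were above every differentiated one for RRM2, ANLN and SHCBP1, and 6 of 7 were for DEPDC1. The median difference was 1.11 over the mitosis list and 0.47 over the 88 genes of DNA replication.

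Over all 43603 probes, 437 were called (1%), of which 323 were up-regulated (0.741%) and the others down-regulated (0.261%) in the undifferentiated MCTs, with a median absolute difference of 1.61. They represent 210 named genes, of which 85 belong to the lists of mitosis and DNA replication and 125, 79 up- and 46 down-regulated, lie outside them. By the brightest probe of each gene, 189 of 11698 genes were called (1.62%), 149 up-regulated (1.27%) and 40 down-regulated (0.342%). The classes did not overlap in any tumor for 73 up-regulated probes and for 0 down-regulated ones, against 79 (0.181%) and 2 (0.00459%) over all probes. The count leaned on T114. Without it 212 probes were called, and without any other undifferentiated tumor the count was higher than that, up to 547 without T115. With slide as a block 86 probes were called, and with scan session as a block 171.

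Outside proliferation, the 12 largest increases were in MMP3, S100A9, IL8, AREG, MMP1, S100A8, IL1B, SLC7A11, MMP13, MGAM, TCN1 and FANK1. The 12 largest decreases were in CLEC3B, CD5L, PI16, NNMT, SFRP4, MYLK3, ISLR, C7, WISP2, GPR1, ANGPTL1 and SCUBE2. Of these 24 genes, 20 differed in the same direction on all 5 slides with both classes, and 23 in all 4 sessions. With slide as a block 1 of the 24, MMP3, was still called, and with scan session as a block 5 were. Each of the 24 kept its direction with either block. Whichever undifferentiated tumor was left out, 7 of the 24 remained called, namely MMP3, SLC7A11, MMP13, MGAM, TCN1, CLEC3B and SCUBE2. Without T114, 17 of the 24 lost the call, with adjusted p up to 0.0544. The numbers that lost it were 12 without T49, 11 without T132, 7 without T80, 6 without T77, 4 without T104 and 0 without T115.

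**Figure D2:**
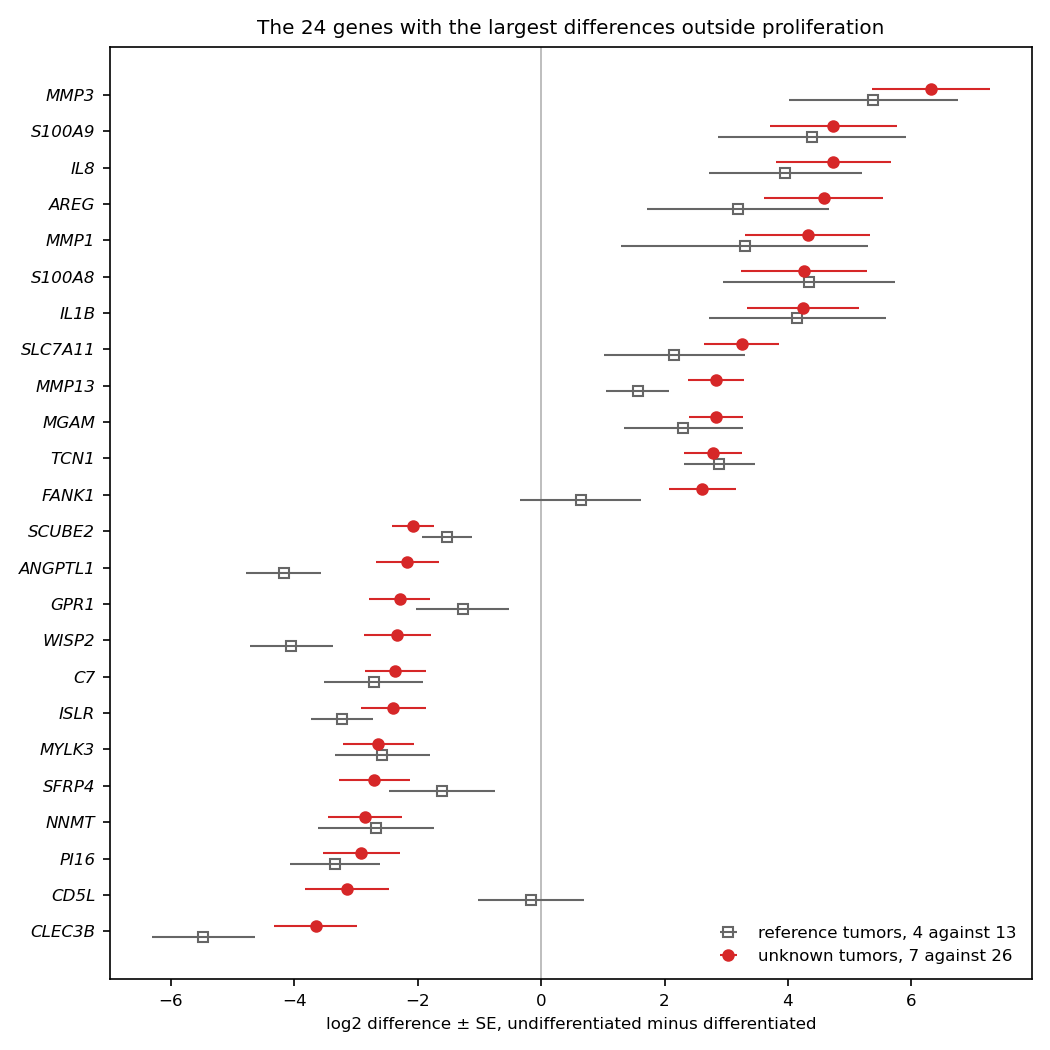
Difference in log2 level, undifferentiated minus differentiated, with its standard error (x axis) for the 12 genes with the largest increase and the 12 with the largest decrease outside proliferation (y axis), in the 33 unknown tumors and, beside it, in the 4 undifferentiated and 13 differentiated reference tumors. All 24 genes had the same direction in both sets.

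The matrix metalloproteinases are secreted enzymes that cut collagens and other matrix proteins, and 3 of them were among the genes with the largest increases. MMP3, stromelysin, was 15.24 in T114, 11.07 in T132, 10.48 in T49, 9.53 in T80, 9.00 in T104, 4.13 in T115 and 1.81 in T77. The 26 differentiated MCTs lay between 1.72 and 7.60 with a median of 1.80, and MMP3 was well above background on 3 of those arrays and on 6 of the 7 undifferentiated ones. In MMP3, 5 undifferentiated MCTs were thus above every differentiated one, whereas T77 was at background. MMP3 spread more among the undifferentiated than among the differentiated MCTs, so a standard error from their common variance can be too small. The difference was 6.32 ± 0.96 (adjusted p = 0.000118), and since most differentiated MCTs were at background no fold is given. It was 7.19 to 9.28 on the slides with both classes, which do not include T77, and 8.04 with slide as a block (adjusted p = 0.00496). With normexp background correction, which compresses low signals, it was 3.21.

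MMP13, a collagenase, ranged from 2.01 in T115 to 7.73 in T114, with 5.72 as the median, against 1.97 to 4.77 (median 2.31) in the differentiated MCTs. Again 5 of 7 undifferentiated MCTs were above the differentiated range. The difference was 2.84 ± 0.45 (adjusted p = 0.00019), and 0.69 with normexp. MMP1, interstitial collagenase, was 6.59 in T115 and up to 13.24 in T114 (median 9.84), against 1.94 to 10.02 (median 4.90). Only 3 undifferentiated MCTs exceeded all differentiated ones for MMP1, and the difference of 4.32 ± 1.01 (adjusted p = 0.00847) lost its call without T49, T77, T80, T104, T114 or T132 (adjusted p up to 0.0481 without T114). The second MMP1 probe differed by 4.41 and was not called. The probes of the 3 genes map close together on chromosome 5, at 31867714 to 31868765 for MMP13, 31966556 to 31966615 for MMP3 and 31988538 to 31988597 for MMP1, in the coordinates of the scanner output, whose genome build is not named.

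**Figure D3:**
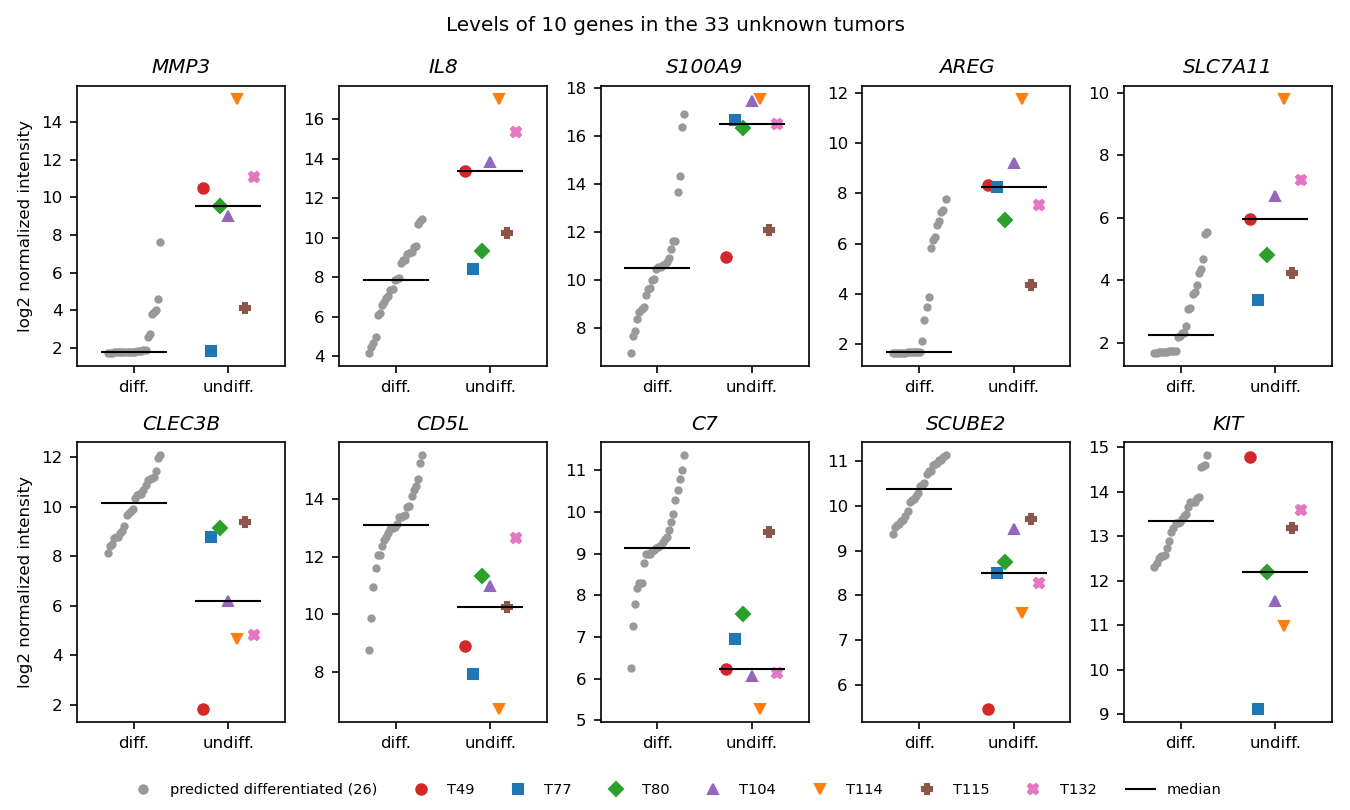
Log2 level (y axis) of 10 genes in each tumor, by predicted class (x axis); each point is 1 tumor and the bar is the class median. T114 is the highest sample for MMP3, IL8, S100A9, AREG and SLC7A11, and T49 the lowest for CLEC3B and SCUBE2.

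Genes of neutrophil attraction and activation formed the next group. IL8, the chemokine that recruits neutrophils, was 8.40 in T77, 9.34 in T80, 10.25 in T115, 13.35 in T49, 13.83 in T104, 15.34 in T132 and 17.02 in T114. The differentiated MCTs lay between 4.17 and 10.93 with a median of 7.87. Of the undifferentiated MCTs, 4 were above that range and the other 3 within it. The difference was 4.73 ± 0.93 (26.6-fold, adjusted p = 0.00196), and the 4 IL8 probes, all of which were called, gave 4.47 to 5.05. On the 5 slides with both classes the difference ran from 1.78 to 8.73, and with slide as a block it was 6.10 (adjusted p = 0.0171). Without T114 it was 3.98 and missed the threshold (adjusted p = 0.0157).

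S100A8 and S100A9 encode the calgranulins, calcium-binding proteins that are abundant in neutrophils and are also made by activated keratinocytes. S100A9 was 10.99 in T49, 12.11 in T115, 16.35 in T80, 16.50 in T132, 16.69 in T77, 17.46 in T104 and 17.57 in T114. The differentiated MCTs reached from 6.97 to 16.94 with a median of 10.52, so that T104 and T114 alone exceeded the whole range. The difference was 4.74 ± 1.03 (26.7-fold, adjusted p = 0.00439) for S100A9 and 4.27 ± 1.02 (19.2-fold, adjusted p = 0.00974) for S100A8. Both calls were lost without T77, T80, T104, T114 or T132, with adjusted p up to 0.0248 for S100A9 and 0.0467 for S100A8 without T114, and with slide as a block (adjusted p = 0.13 and 0.206). On 1 of the 5 slides S100A8 differed by -0.70. The 2 tumors with little epidermal RNA, T49 and T115, were those with the lowest S100A9 and S100A8 among the undifferentiated MCTs. With the mean level of the epidermis list as a covariate, an alternative chosen after seeing the data, the differences were 3.78 for S100A9 (adjusted p = 0.00582) and 3.27 for S100A8 (adjusted p = 0.0129). Their probes map to chromosome 7, at 46544312 to 46544371 for S100A9 and 46518533 to 46518592 for S100A8.

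IL1B, the inflammatory cytokine interleukin 1 beta, was 13.25 in T114, 10.33 in T49, 7.53 in T132, 7.05 in T104, 5.24 in T115, 2.39 in T80 and 1.92 in T77. It lay between 1.79 and 6.76 (median 1.95) in the differentiated MCTs, where 4 of 26 arrays were well above background. The tumors therefore ranged from background to strong signal within the undifferentiated class. The difference was 4.24 ± 0.91 (adjusted p = 0.00403), with adjusted p of 0.0188 without T49, 0.0281 without T114 and 0.0119 without T132. Of the 3 IL1B probes this was the only one called. IL1RN, the antagonist of the IL1 receptor, was 12.23 in T114 and 7.96 to 9.76 in the other undifferentiated MCTs, against 6.56 to 8.62, and 5 of 7 were above all differentiated MCTs. It differed by 1.54 ± 0.33 (adjusted p = 0.004, with the call lost without T49 or T114, at most 0.0176).

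Of the 17 measured genes of the granulocyte list, 6 were called, all up-regulated (35.3%, against 1.62% of all named genes): S100A9, IL8, S100A8, IL1B, CSF3R, the receptor for granulocyte colony-stimulating factor, and IL8RB, a receptor for IL8. CSF3R differed by 2.25 ± 0.52 (adjusted p = 0.00797) and IL8RB by 1.84 ± 0.33 (adjusted p = 0.000692). In all, 11 of the 17 genes were higher, with a median difference of 1.0, and the mean level of the list was 8.92 to 11.51 in the undifferentiated MCTs and 7.51 to 9.96 in the differentiated ones. Eosinophil genes of the list, IL5RA and CCR3, gave -1.17 and -0.76 with adjusted p of 0.162 and 0.6. The count of 6 fell to 1 without T114, 2 without T132 and 3 without T104, and to 1 with slide or session as a block. Some other inflammatory cytokines gave large differences that missed the threshold, 2.76 ± 0.66 for the chemokine CCL3 (adjusted p = 0.0102), 2.87 ± 0.73 for IL1A (adjusted p = 0.015), 2.97 ± 0.76 for CSF2 (adjusted p = 0.0165) and 3.16 ± 1.11 for IL6 (adjusted p = 0.0872). Over the 56 measured genes of the chemokine and cytokine list, 31 were higher and 25 lower, with a median difference of 0.05. Of that list IL1B and IL1RN were called up-regulated and CXCL12 down-regulated (5.36%, against 1.62% of all named genes).

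Among growth factors, AREG, a ligand of the epidermal growth factor receptor, was 4.38 in T115, 6.95 in T80, 7.55 in T132, 8.25 in T77, 8.33 in T49, 9.20 in T104 and 11.77 in T114. The differentiated MCTs lay between 1.66 and 7.76, and their median of 1.70 was at background. For AREG 4 undifferentiated MCTs were above that range and all 7 were above its median. The difference was 4.58 ± 0.96 (adjusted p = 0.00349), with most differentiated MCTs at background. It was 3.52 with the epidermis covariate (adjusted p = 0.00153), 3.62 with slide as a block (adjusted p = 0.196), 1.92 with normexp and 3.97 without T114 (adjusted p = 0.0249). Of the undifferentiated MCTs with little epidermal RNA, T49 was above all differentiated MCTs for AREG, and T115 was the lowest of its class and within the differentiated range.

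NRG1, neuregulin 1, a ligand of ERBB receptors, varied little among the undifferentiated MCTs, from 7.58 to 8.06, and widely among the differentiated ones, from 2.48 to 7.83 with a median of 5.43. The difference was 2.47 ± 0.58 (adjusted p = 0.00858), which lost its call without any 1 of the 7 tumors (adjusted p 0.0127 to 0.0274), and the brighter NRG1 probe missed the threshold at 2.93 ± 0.76 (adjusted p = 0.0173). WNT7A, a secreted Wnt ligand, was at most 5.75, in T114, and was not well above background on any differentiated array. It was called (adjusted p = 0.000397), and against the lowest signals above background the increase is at least 1.65-fold. Apart from AREG, no gene among the 49 measured receptor kinases and growth factors was called by its brightest probe (2.04%, against 1.62% of all named genes). Of the 49, 32 were higher, as were 5733 of all 11698 named genes.

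SLC7A11, the cystine transporter that supplies glutathione synthesis, was 3.38 in T77, 4.25 in T115, 4.80 in T80, 5.97 in T49, 6.72 in T104, 7.22 in T132 and 9.81 in T114, against 1.68 to 5.54 (median 2.27) in the differentiated MCTs. For SLC7A11 4 of 7 were above the differentiated range and the other 3 were above its median. The difference was 3.25 ± 0.61 (adjusted p = 0.00116), 2.40 to 3.94 within slides, 3.32 with slide as a block (adjusted p = 0.0172) and 0.98 with normexp. ASNS, asparagine synthetase, was 11.56 to 12.48 against 9.27 to 11.97 and differed by 1.33 ± 0.26 (adjusted p = 0.00179).

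SLC2A1, the glucose transporter GLUT1, was 9.94 in T115 and 12.90 to 14.92 in the other 6 undifferentiated MCTs. The differentiated MCTs lay between 7.97 and 13.10 with a median of 10.01, so T115 was at their median and 4 undifferentiated MCTs were above all of them. The difference was 2.61 ± 0.61 (adjusted p = 0.00865), with adjusted p of 0.2 with slide as a block, and the call was lost without any 1 of the undifferentiated MCTs other than T115 (at most 0.0492). PFKP, a phosphofructokinase of glycolysis, was 10.91 to 13.10 against 9.65 to 11.42, a difference of 1.21 ± 0.21 (adjusted p = 0.000401) that remained called whichever undifferentiated tumor was left out. The dimmer HK2 probe differed by 1.99 ± 0.47 (adjusted p = 0.00831), while the brighter probe for this hexokinase differed by 0.08. Of the 40 measured genes of glycolysis and hypoxia, 2 were called by the brightest probe (5%, against 1.62% of all named genes), 32 were higher, and the median difference was 0.35. GAPDH differed by 0.54 ± 0.11 (adjusted p = 0.00386), below the fold of 2.

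The remaining genes with the largest increases have less related roles. MGAM, a brush border maltase, was 2.11 in T80 and up to 7.28 in T114, against 1.96 to 4.94, and TCN1, a vitamin B12-binding protein stored in neutrophil granules, was 3.25 in T115 and up to 8.81 in T80, against 1.89 to 5.02. They differed by 2.84 ± 0.44 (adjusted p = 0.000147) and 2.78 ± 0.47 (adjusted p = 0.000349). Both had low signals in the differentiated MCTs, well above background on 1 and 5 of 26 arrays, and differed by 0.63 and 0.90 with normexp. FANK1 was 6.43 in T77 and up to 11.98 in T114, against 3.85 to 8.87, and differed by 2.61 ± 0.55 (adjusted p = 0.00333, with the call lost without T49 or T114, at most 0.0252). UCHL1, a deubiquitinase of neuroendocrine cells, was 12.74 in T114 and 10.26 to 11.33 in the other undifferentiated MCTs, against 7.20 to 11.34, and differed by 1.60 ± 0.36 (adjusted p = 0.00579, with the call lost without T49, T77, T104, T114 or T115, at most 0.0404).

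CD14, the co-receptor for lipopolysaccharide on monocytes and macrophages, was 9.30 in T77, 9.88 in T104, 11.29 in T80, 11.48 in T132, 11.56 in T115, 12.05 in T114 and 12.77 in T49. The differentiated MCTs lay between 8.70 and 10.50, and 5 undifferentiated MCTs were above all of them. The difference was 1.70 ± 0.29 (3.24-fold, adjusted p = 0.000341), 0.42 to 3.80 within slides, and 2.26 with slide as a block (adjusted p = 0.00396). The other macrophage markers were not called, with -0.10 for CD68, 0.43 for CD163, -0.30 for CSF1R and -1.10 for C1QA (adjusted p 0.0939 to 0.833). CD14 was the 1 gene called of the 37 measured in the macrophage and dendritic cell list (2.70%, against 1.62% of all named genes). TGFBI, a matrix protein induced by transforming growth factor beta, was 12.66 to 15.14 against 11.90 to 13.68, above all differentiated MCTs in 5 of 7, and differed by 1.15 ± 0.26 (adjusted p = 0.00623, with the call lost without T49, T80, T114 or T115, at most 0.0381). The dimmer TGFBI probe differed by 0.96 and was not called (adjusted p = 0.12).

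The down-regulated genes included several secreted and matrix-associated proteins. CLEC3B, tetranectin, a plasminogen-binding protein of the stroma, was 1.81 in T49, 4.63 in T114, 4.80 in T132, 6.17 in T104, 8.79 in T77, 9.13 in T80 and 9.41 in T115. No differentiated MCT was below 8.13 and their median was 10.15, so that 4 undifferentiated MCTs were below all of them. The difference was -3.66 ± 0.68 (12.6-fold lower, adjusted p = 0.000967). It was negative on every slide with both classes, from -7.82 to -0.36, with -3.93 for slide as a block (adjusted p = 0.0446).

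SCUBE2, a secreted and membrane-tethered protein of Hedgehog signaling, was 5.46 in T49, 7.61 in T114, 8.27 in T132, 8.50 in T77, 8.76 in T80, 9.48 in T104 and 9.70 in T115. It was held within a narrow range of 9.38 to 11.14 in the differentiated MCTs. For SCUBE2 5 of 7 undifferentiated MCTs were below that range, and the difference was -2.08 ± 0.34 (4.23-fold lower, adjusted p = 0.000229), or -2.13 with slide as a block (adjusted p = 0.0118). Both SCUBE2 probes were called.

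SFRP4, a secreted Wnt antagonist, was 7.62 in T132 and up to 13.82 in T115, against 11.13 to 15.42, and 3 of 7 were below the differentiated range. PI16, expressed by a class of skin fibroblasts, was 1.95 to 5.61 against 3.64 to 10.02, and ISLR, another fibroblast gene, was 1.87 to 6.06 against 2.99 to 8.84. The differences were -2.70 ± 0.58 (adjusted p = 0.00389) for SFRP4, -2.91 (adjusted p = 0.00408) for PI16 and -2.39 (adjusted p = 0.00524) for ISLR. WISP2, a matricellular protein, differed by -2.33 (adjusted p = 0.00772), and ANGPTL1, an angiopoietin-like secreted protein, by -2.17 (adjusted p = 0.00858). NNMT, which methylates nicotinamide, differed by -2.85 (adjusted p = 0.00344), MYLK3, a myosin light chain kinase, by -2.64 (adjusted p = 0.00498) and GPR1, a chemerin receptor, by -2.29 (adjusted p = 0.00456). For several of these genes another probe was not called, at -0.78 for the brighter PI16 probe (adjusted p = 0.0873), -0.99 for GPR1 (adjusted p = 0.0416) and -1.12 for WISP2 (adjusted p = 0.0499). The other ANGPTL1 probes, at -2.34 (adjusted p = 0.0104) and -1.27 (adjusted p = 0.123), were also not called. Nor was the dimmer SFRP4 probe, at -2.17 (adjusted p = 0.0105). Each of these 8 genes lost its call without T114 (adjusted p 0.0163 to 0.0544), and their groups overlapped. TGFBR3, betaglycan, a co-receptor for transforming growth factor beta, was 6.50 to 9.21 against 8.19 to 10.92, with 5 of 7 below the differentiated range, and differed by -1.56 ± 0.32 (adjusted p = 0.00242, with the call lost without T49 or T114, at most 0.0128). The other TGFBR3 probes were not called, at -1.36 for the brightest (adjusted p = 0.0273) and -0.89 for the dimmest (adjusted p = 0.0221).

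Main structural genes of fibroblasts were not called. COL1A1 and COL1A2, the chains of type I collagen, differed by 0.36 (adjusted p = 0.71) and 0.26 (adjusted p = 0.569), and the proteoglycan DCN by -0.27 (adjusted p = 0.318). Of the 87 measured genes of the fibroblast and extracellular matrix list, 44 were higher and 43 lower, with a median difference of 0.01. The calls were 6 (6.90%, against 1.62% of all named genes), all down-regulated: CLEC3B, SFRP4, WISP2, the chemokine CXCL12, and the matrix proteins SVEP1 and ABI3BP. Over the whole list, 1 gene was called without T114, 2 without T49 or without T132, and 10 without T115. With either slide or session as a block 0 genes of the list were called. At the other end of the list, TNC differed by 2.30 ± 0.71 (adjusted p = 0.0472), THBS1 by 1.96 ± 0.53 (adjusted p = 0.0234) and BGN by 1.61 ± 0.48 (adjusted p = 0.0382), which missed the threshold of 0.01.

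Of the complement genes 4 were down-regulated. C7, a component of the membrane attack complex, was 5.27 in T114, 6.06 in T104, 6.14 in T132, 6.24 in T49, 6.95 in T77, 7.56 in T80 and 9.53 in T115, against 6.26 to 11.37 (median 9.14). T115 alone was above the differentiated median and 4 undifferentiated MCTs were below the whole range. C7 differed by -2.36 ± 0.49 (5.14-fold lower, adjusted p = 0.00321), C3, the central complement component, by -1.86 ± 0.43 (adjusted p = 0.00688), and C1S and C1R, the proteases of the first component, by -1.57 (adjusted p = 0.00232) and -1.12 (adjusted p = 0.00229). These 4 of 23 measured complement genes were called (17.4%, against 1.62% of all named genes), 17 of 23 were lower, and the median difference was -0.65. C3 lost its call without any 1 undifferentiated tumor other than T115 (adjusted p up to 0.0301) and C7 without T49, T114 or T132 (up to 0.0217). C1S lost it without T49 or T132 (up to 0.0122) and C1R without T132 (0.0115). Over the whole list 0 genes were called without T132, 1 without T49 and 2 without T114, and 0 with slide as a block.

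CD5L, a protein secreted by tissue macrophages, was 6.72 in T114, 7.93 in T77, 8.90 in T49, 10.27 in T115, 10.99 in T104, 11.33 in T80 and 12.65 in T132. All 7 were below the differentiated median of 13.08, with the differentiated MCTs between 8.77 and 15.52. The difference was -3.15 ± 0.68 (8.85-fold lower, adjusted p = 0.00421), -6.18 to -1.06 within slides and -3.10 with slide as a block (adjusted p = 0.0834), and without T49, T77 or T114 it lost its call (adjusted p up to 0.0308). PALMD, of the endothelial list, differed by -1.50 (adjusted p = 0.00637) and PMP22, a myelin protein that fibroblasts also express, by -1.08 (adjusted p = 0.00767). PALMD was the 1 gene called of the 35 measured in the endothelial list (2.86%, against 1.62% of all named genes). It was also the most lowered gene there. Most of that list went the other way, as 23 of the 35 had a positive difference and the list median was 0.16. PALMD lost its call without T49, T80, T114 or T132 (adjusted p up to 0.0305) and PMP22 without T77, T80, T104, T114 or T132 (up to 0.0263).

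Epidermal genes gave large differences, none of which passed the test. KRT5, a keratin of basal keratinocytes, was 3.10 in T49, 8.86 in T115 and 16.90 to 17.68 in the other 5 undifferentiated MCTs, while the differentiated MCTs spanned 1.92 to 17.75. Both classes thus contained samples with and without keratin signal. The differences were 2.50 for KRT5 (adjusted p = 0.642), 3.91 ± 2.75 for KRT1 (adjusted p = 0.494) and 4.09 ± 2.75 for KRT10 (adjusted p = 0.465). All 28 measured genes of the epidermis list were higher in the undifferentiated MCTs and 0 were called (against 1.62% of all named genes), with a median difference of 2.07. With the mean of this list as a covariate 359 probes were called, and all 24 genes named above kept their direction, 17 of them called.

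Lymphocyte, fat and muscle genes gave no calls. This held for 31 genes of T and NK cells, 15 of B and plasma cells, 14 of MHC class II, 20 of adipocytes and 28 of skeletal muscle (0 called in each list, against 1.62% of all named genes). The B cell list had 13 of 15 genes lower with a median of -0.65, and the T and NK cell list a median of -0.10. Interferon-stimulated genes had 35 of 41 lower with a median of -0.35 and 0 called, and IFI6, the most lowered of them, differed by -1.23 (adjusted p = 0.0808). The 21 genes of basement membrane and pericytes had 16 higher, a median of 0.65 and 0 called, and that median was -0.01 with slide as a block, 0.15 with normexp and 0.18 with the epidermis covariate. The transcription factor MYC differed by -0.05, the apoptosis inhibitor BCL2 by -0.23 and ACTB by -0.06.

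The same comparison was made in the 4 undifferentiated and 13 differentiated reference tumors, which share no sample with the 33 but trained the predictor. There 559 probes were called (1.28%), 321 up-regulated (0.736%) and 238 down-regulated (0.546%). Of the 437 probes called in the unknown tumors, 420 (96.1%) differed in the same direction in the reference tumors and 191 were called in both, while 55.4% of all probes had the same direction. Agreement in proliferation genes, and in genes that vary with them, was partly fixed by training the predictor on these tumors. The share over all probes includes probes with little difference, so it is no matched comparison for the called ones. Of the 125 genes outside proliferation, 118 had the same direction, 74 up and 44 down, and 22 were called in both sets. All 24 genes with the largest changes had the same direction, and TCN1, CLEC3B, ISLR, WISP2 and ANGPTL1 were also called there. MMP3 differed by 5.39 in the reference tumors, IL8 by 3.96, S100A9 by 4.39 and AREG by 3.20, each with an adjusted p above 0.01. CLEC3B differed by -5.47 and ANGPTL1 by -4.17 (adjusted p = 0.00149 and 0.00117).

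**Figure D4:**
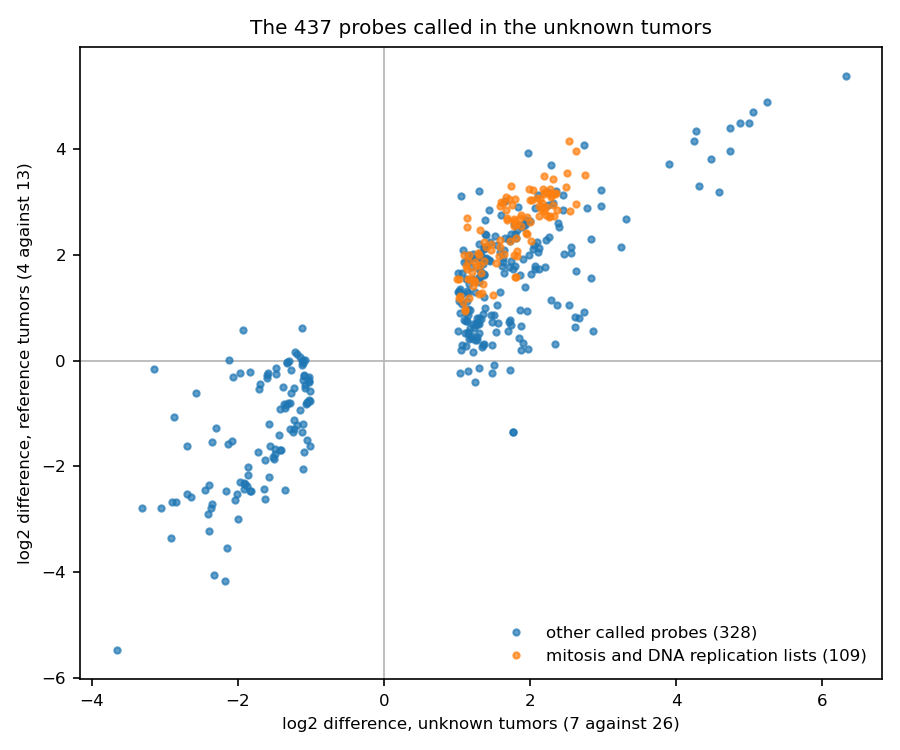
Difference in log2 level in the reference tumors (y axis) against that in the unknown tumors (x axis) for the 437 probes called in the unknown tumors; 109 are probes of mitosis or DNA replication genes and 328 are other probes. Points in the lower left and upper right have the same direction in both sets, as 420 probes do.

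For some genes the estimates of both sets lay apart, and for none of those that follow was the difference between the sets called. CD5L differed by -3.15 in the unknown and -0.16 in the reference tumors, FANK1 by 2.61 and 0.64, SLC2A1 by 2.61 and 0.83, CD14 by 1.70 and 0.56 and KIT by -1.20 and 0.03. List medians also differed between both sets. The median difference of the fibroblast and extracellular matrix list was 0.01 in the unknown and -1.18 in the reference tumors, that of the epidermis list 2.07 and -0.70, and that of the basement membrane list 0.65 and -0.37. The granulocyte list had medians of 1.0 and 1.48, and the complement list -0.65 and -1.20. These list medians are descriptions without a test. Over all probes, the difference between both sets reached an adjusted p under 0.05 for 11 (0.0252%).

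**Figure D5:**
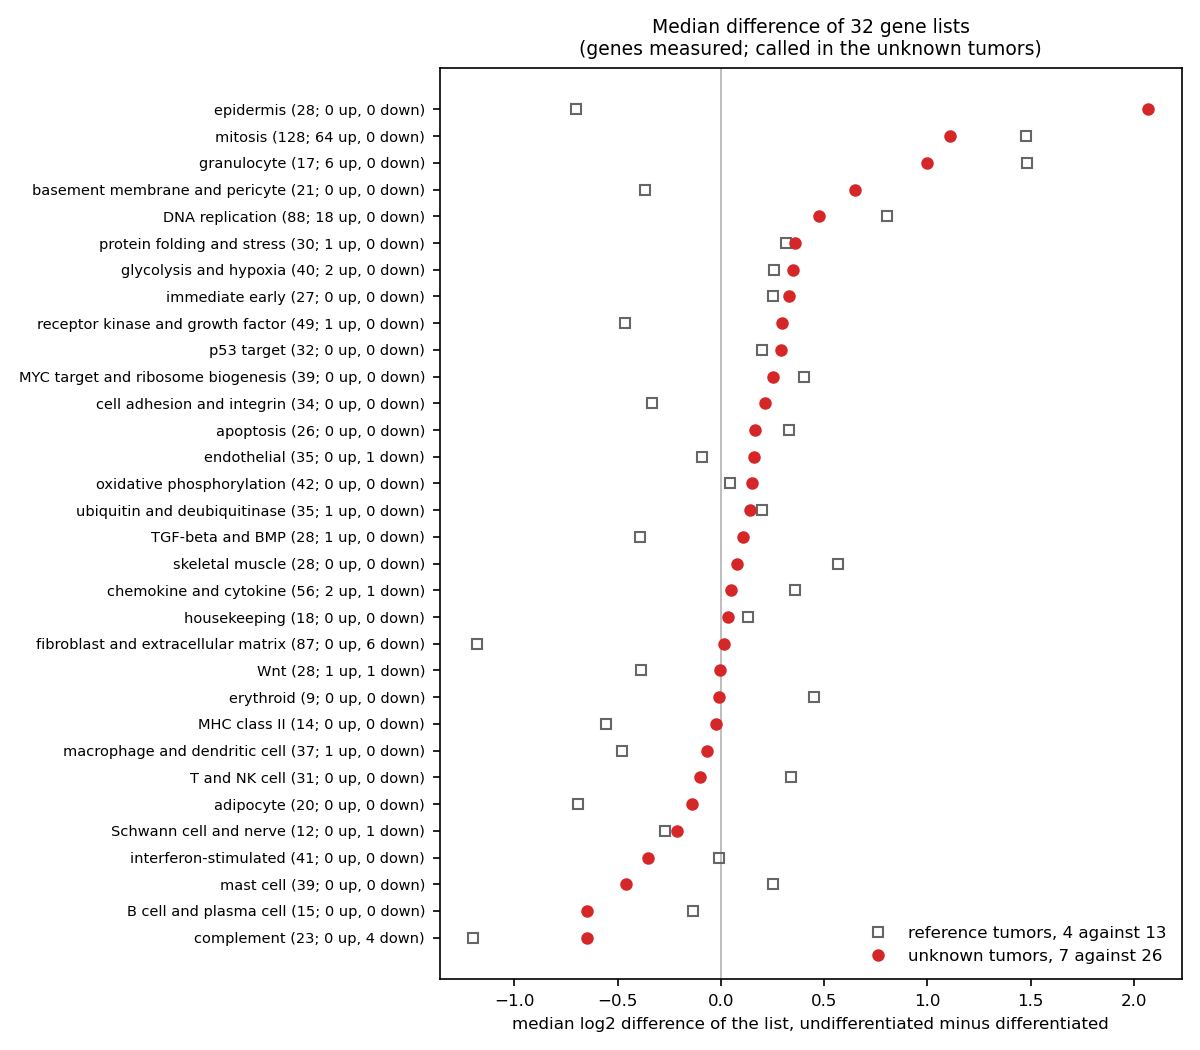
Median difference in log2 level, undifferentiated minus differentiated, of each of 32 gene lists (y axis) in the unknown tumors and in the reference tumors (x axis, log2 units). The epidermis and fibroblast lists lie furthest apart between both sets, whereas mitosis and granulocyte lists are above 0 in both.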

How the data were processed

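Single-dye labeled RNA of each tumor was hybridized to 1 Agilent canine array. Scans were read out by the authors with Agilent Feature Extraction, and the deposited processed signal is a background-subtracted intensity on a linear scale, not normalized between arrays. The authors also deposited intensities quantile-normalized over the 51 arrays, used as an alternative. All log2 values were computed here from the deposited intensities. Processed signals were log2-transformed, followed by quantile normalization over 51 arrays. Control spots were left out, 5 to 35 spots per array flagged as feature outliers were set to missing, and spots of 1 probe were averaged, which left 43603 probes, 19262 with a gene symbol (11698 genes). Low signals are set largely by the background, and the number of arrays limits the precision.

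R 4.3.3, limma 3.58.1, data.table (version 1.17.8), statmod 1.5.0, matplotlib 3.10.9 and numpy 2.4.6 were used. limma (lmFit, eBayes) was fitted to the 33 unknown arrays without covariates, to the 4 and 13 reference arrays with a class, and to all 4 groups for the difference between both contrasts, with Benjamini-Hochberg adjustment over all probes. One sample, whose labels match no case of the study by name, was not analysed here, so the undifferentiated reference tumors are 1 fewer than the study used. The study's own program, SAM, was replaced by limma. The limma fit was tried on simulated data with 7 against 26 arrays and 43398 probes. There 99 of 100 probes changed by 4 log2 units and 89 of 100 changed by 2 were called, with 1 false call. How far these counts hold for the tumor arrays was not tested.

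The genes named outside mitosis and DNA replication were the 12 largest increases and the 12 largest decreases among called genes, 1 called probe per gene. Added to them were 4 proliferation genes, up to 4 called genes or 2 defining genes of each other list, and KIT. Other list genes were chosen after their values were seen. The tumors and the gene lists were chosen with earlier results of these data known. Gene lists were counted by the brightest probe of each gene. Alternatives were 75th percentile scaling, normexp (offset 50), the authors' table, keeping the flagged spots, filtering out dim probes, slide or scan session as a block, sex or age as a covariate, other fits and thresholds, the methods' t-test and leaving out each tumor of the smaller class. The values of 1 marker gene of the predictor and of 1 gene of another list are not reported here.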

Additional observations from a re-analysis of the deposited data

Results flagged for a closer look

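Among the 7 undifferentiated MCTs, 1 tumor stood apart from the rest, by the gap to its nearest neighbour relative to the whole range, for 5 of 108 genes and gene lists tested (4.63%). Chance gives such a gap in about 1 of 20 groups. T114 had the highest IL1RN, 12.23 against 9.76 in the next tumor, the highest UCHL1, 12.74 against 11.33, and the highest ITGA1, an integrin chain, 11.31 against 10.16. SLC2A1 was 9.94 in T115 against 12.90 in the next lowest tumor. SLC4A1, the red cell anion exchanger, was 1.97 in T132 against 1.67, on a probe that was not well above background on any of the 33 arrays.

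The class difference differed between the unknown and the reference tumors for 6 named genes, by an interaction term in limma over all 4 groups. The values below are the difference in the unknown tumors minus that in the reference tumors, in log2 units. They were -2.18 for GUCY2D (adjusted p = 0.00283), -2.09 for BOLL, -2.55 for PGA5, -0.81 for PMFBP1, -2.06 for FBXO43 (adjusted p = 0.0428) and 1.53 for ENDOD1 (adjusted p = 0.047). GUCY2D, BOLL and PGA5 were well above background on 0 arrays of the unknown tumors and on 2 of the 4 undifferentiated reference arrays each. PMFBP1 was below that level on all arrays of both sets. FBXO43, an inhibitor of the anaphase-promoting complex in meiosis, differed by 1.06 in the unknown tumors, where it was well above background on 0 of 7 undifferentiated and 1 of 26 differentiated arrays, and by 3.12 in the reference tumors, where it was on 3 of the 4 undifferentiated arrays. ENDOD1 was well above background on all arrays and differed by 0.69 in the unknown and -0.84 in the reference tumors. The other 5 probes called for this difference have no gene symbol.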

How the results depend on the processing

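The count of 437 probes was 219 with normexp, 86 with slide and 171 with scan session as a block, 246 with age as a covariate, 832 at an adjusted p under 0.05, 1068 by the methods' t-test without adjustment, and 212 to 547 with 1 undifferentiated tumor left out. The other alternatives gave 324 to 518. With slide as a block 80 were up- and 6 down-regulated, and with session 154 and 17. In the reference tumors the count of 559 was 304 with normexp, 54 with slide and 345 with session as a block, 1352 at an adjusted p under 0.05, and 293 to 848 with 1 undifferentiated tumor left out (293 without T9, 354 without T73, 848 without T57). The count of 11 for the difference between both sets was 31 with slide as a random block. Against 6 genes called in the matrix list, 0 were called with slide, session or sex in the fit, 1 with age and 3 with the epidermis covariate (1 to 10 with 1 tumor left out). Against 6 in the granulocyte list, 1 was called with slide, session or age, and 3 with sex or the authors' table (1 to 5). Against 4 in the complement list, 0 were called with slide, sex or age, 1 with session and 2 with the epidermis covariate (0 to 5). These are counts over each list, not of the same genes. The fits with sex or age also left out the dogs without that value, among them T132 in both fits. The causes were not tested.

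Among the 47 named genes that were called, 43 were still called with 75th percentile scaling or the authors' table, 30 with normexp, 20 with sex, 16 with age, 13 with session and 4 with slide as a block, and 0 changed direction. Without T132 alone, which the fits with sex or age also leave out, 25 of the 47 were still called. Losses from the covariate and losses from the dogs left out were not told apart. The slide block rests on 6 undifferentiated MCTs on 5 slides. Signals near background limit the folds of genes such as MMP3, AREG and SLC7A11. No paired analysis was possible because the replicate numbers only follow the order of the samples and tie no tumors of different classes together.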

Other observations

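Some further called genes outside proliferation were picked after their values were seen and stand here singly, not as members of a tested group. TXN, thioredoxin, differed by 1.23 ± 0.20 (adjusted p = 0.000212), GLRX, glutaredoxin, by 1.25 ± 0.25 (adjusted p = 0.00231) and SOD2, the mitochondrial superoxide dismutase, by 1.36 ± 0.30 (adjusted p = 0.00532). UCK2, a uridine-cytidine kinase, differed by 1.19 ± 0.15 (adjusted p = 1.4e-05), DCK, deoxycytidine kinase, by 1.72 ± 0.30 and MTHFD2, of mitochondrial folate metabolism, by 1.15 ± 0.19, and DCK and MTHFD2 were also called in the reference tumors, at 2.30 and 1.27. Differences in genes that vary with proliferation were partly built into the predicted classes. Whether UCK2, DCK and MTHFD2 are such genes here was not tested. PLAUR, the urokinase receptor, differed by 2.40 ± 0.55 (adjusted p = 0.00681) and MMP11, stromelysin 3, by 2.33 ± 0.49 (adjusted p = 0.00343), against 2.53 and 0.31 in the reference tumors. SNAI1, a transcriptional repressor of epithelial genes, differed by 2.29 ± 0.49 (adjusted p = 0.00411), ESM1, secreted by activated endothelium, by 2.56 ± 0.41 (adjusted p = 0.000221) and PGF, placental growth factor, by 1.72 ± 0.29 (adjusted p = 0.000397).

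Of single down-regulated genes, also picked after their values were seen, IKZF2, an Ikaros family zinc finger protein, differed by -1.70 ± 0.33 (adjusted p = 0.00193), the transcription factor NFIA by -1.01 ± 0.17 (adjusted p = 0.000397) and ZBTB20 by -1.04 ± 0.23 (adjusted p = 0.0048). ABCA9, a lipid transporter of the ABC family, differed by -1.97 ± 0.41 (adjusted p = 0.00329) and PLTP, phospholipid transfer protein, by -1.62 ± 0.39 (adjusted p = 0.00939), and PLTP was also called in the reference tumors, at -2.62. SESN1, a p53 target, differed by -1.08 ± 0.24 (adjusted p = 0.00597, lost without T49, T80, T114 or T132, at most 0.0346), while its brightest probe at -0.99 was under the fold of 2. By the brightest probe 0 of 32 measured p53 targets were called, against 1.62% of all named genes. PDCD4, an inhibitor of translation, differed by -1.01 ± 0.22 (adjusted p = 0.00411).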
